A study of Mus musculus with 16 samples.

Results

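Myc and 8 genes for amino acid transporters of the plasma membrane were examined in mouse CD8+ T cells whose Tardbp gene had been targeted. The members were Myc, Slc7a5, Slc3a2, Slc7a6, Slc1a5, Slc1a4, Slc38a1, Slc38a2 and Slc7a1. They were taken by symbol, 9 of the 55536 annotated genes in the deposited gene table. The rule used no measured value, but the members were chosen with earlier results of these data known. The cells were CD8+ T cells of OT-1 Tg C57BL/6J mice, whose transgenic receptor recognises the ovalbumin peptide SIINFEKL. All cells of both groups were electroporated with the nuclease Cas9 and a guide RNA. All were then transferred into C57BL6/J recipients, which were given the antigen and anti-OX40 and anti-41BB, antibodies that trigger a pair of costimulatory receptors. By the labels, recipients gave spleens and lymph nodes 4 days later (the methods give a somewhat shorter time), and CD8+ T cells were sorted from them for RNA. The methods say that the sort used CD8 and the CD45 forms carried by the donor mice of the transferred cells. The labels set the groups apart by the guide, a scrambled control (Control gRNA, 8 libraries) or one against Tardbp (Tardbp gRNA, 8 libraries). Tardbp encodes the RNA-binding protein TDP-43, which acts in splicing and in the choice of 3' ends. Each library came from 1 recipient, the guide acted on a pool of cells and not on a clone, and the sources used here do not state which libraries shared a donor mouse. P-values therefore measure the spread between recipients. The ages of the animals are given in the methods only as a general range.

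Activated T cells take up amino acids at a high rate to build protein and nucleotides, and the transcription factor Myc, induced by the antigen receptor, drives many of the genes this requires. Leucine enters mainly through the CD98 complex, in which the light chain Slc7a5 carries the substrate and the heavy chain Slc3a2 brings it to the surface. Glutamine enters through sodium-coupled carriers of the Slc1 and Slc38 families, and arginine through Slc7a1. The incoming amino acids feed synthesis and also signal to the kinase complex mTORC1 at the lysosome.

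Annotated genes received 73649630 to 93893357 estimated counts in a Control library and 56016533 to 94801105 in a Tardbp library. The targeted gene was lower in Tardbp gRNA, at 134.9 ± 11.3 CPM (counts scaled to a common library size, with factors from the trimmed mean of M-values; SD, n = 8), than in Control gRNA, at 192.4 ± 13.3 CPM (SD, n = 8), with no overlap, so Tardbp RNA was still made. For the protein, the paper reports from an immunoblot that cells given the Tardbp guide did not produce it. The 11 markers of CD8 T cells summed to 8298 to 9786 CPM in Control libraries against 11129 to 14294 CPM in Tardbp libraries, and all 11 were called higher. Markers of other cells were low but not absent, and none was at 0 in every library. The 8 markers of red cell precursors summed to 16.2 to 53.4 CPM in Control libraries against 53.6 to 240.1 CPM in Tardbp libraries (5 of 6 tested were called higher). The 8 of myeloid cells summed to 14.8 to 37.1 and 19.3 to 80.2 CPM (2 of 6 called higher), the 8 of B cells to 13.7 to 27.7 and 27.1 to 42.7 CPM (1 of 6 called higher), and the 4 of CD4 T cells to 4.39 to 20.7 and 6.15 to 15.6 CPM (0 of 4). Input RNA concentration was recorded by NanoDrop and by Qubit, with no unit in the headers. By NanoDrop it ran from 34.9 to 197.1 for Control and from 10.1 to 24.0 for Tardbp libraries, so this measure separated the groups, and its part in the results below cannot be told apart from that of the guide. By Qubit the groups overlapped, at 9.4 to 11.1 and 9.2 to 10.8. The letter M or F given for each library was F for 5 and M for 3 Control libraries, and F for 3 and M for 5 Tardbp libraries.

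To ask whether the transporters and Myc differed between the groups, all 16650 genes with enough counts went into edgeR's quasi-likelihood test, with a call where the Benjamini-Hochberg adjusted p was under 0.05. All 9 members passed the filter on low counts, through both groups. Of the 9, 8 were called lower in Tardbp gRNA, 0 were called higher and Slc1a5 was not called. Changes were common in these data, and the same test called 46.7% of all genes, 23.3% lower and 23.5% higher. The median log2 fold change, given throughout as Tardbp gRNA minus Control gRNA, was -0.36 over the members and 0.05 over all genes tested. For 5 members, all lower, the 8 Tardbp libraries did not overlap the 8 Control libraries, as was the case for 10.3% of all genes in that direction and 16.9% in either. In RNA of a whole sorted sample, fewer cells of one kind and less of a transcript in each cell cannot be told apart.

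Myc was lower in Tardbp gRNA, by a modest amount. The Control libraries ran from 94.5 CPM through a median of 115.2 to 129.7 CPM, and the Tardbp libraries from 77.6 through 91.1 to 99.95 CPM. The ranges met only because Control libraries 3 and 8 were low and Tardbp library 4 was high, and all 8 Tardbp libraries lay below the Control median. The means were 113.4 ± 12.7 and 90.1 ± 6.18 CPM (SD, n = 8 each), and the change on the log2 scale was -0.33 (SE 0.066, edgeR adjusted p 0.000411). Permuting the libraries in all ways (exact, two-sided) gave p = 0.000622. The gene (ENSMUSG00000022346.15) lies on the plus strand of chromosome 15, 61985391 to 61990374 (GRCm38).

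**Figure D1:**
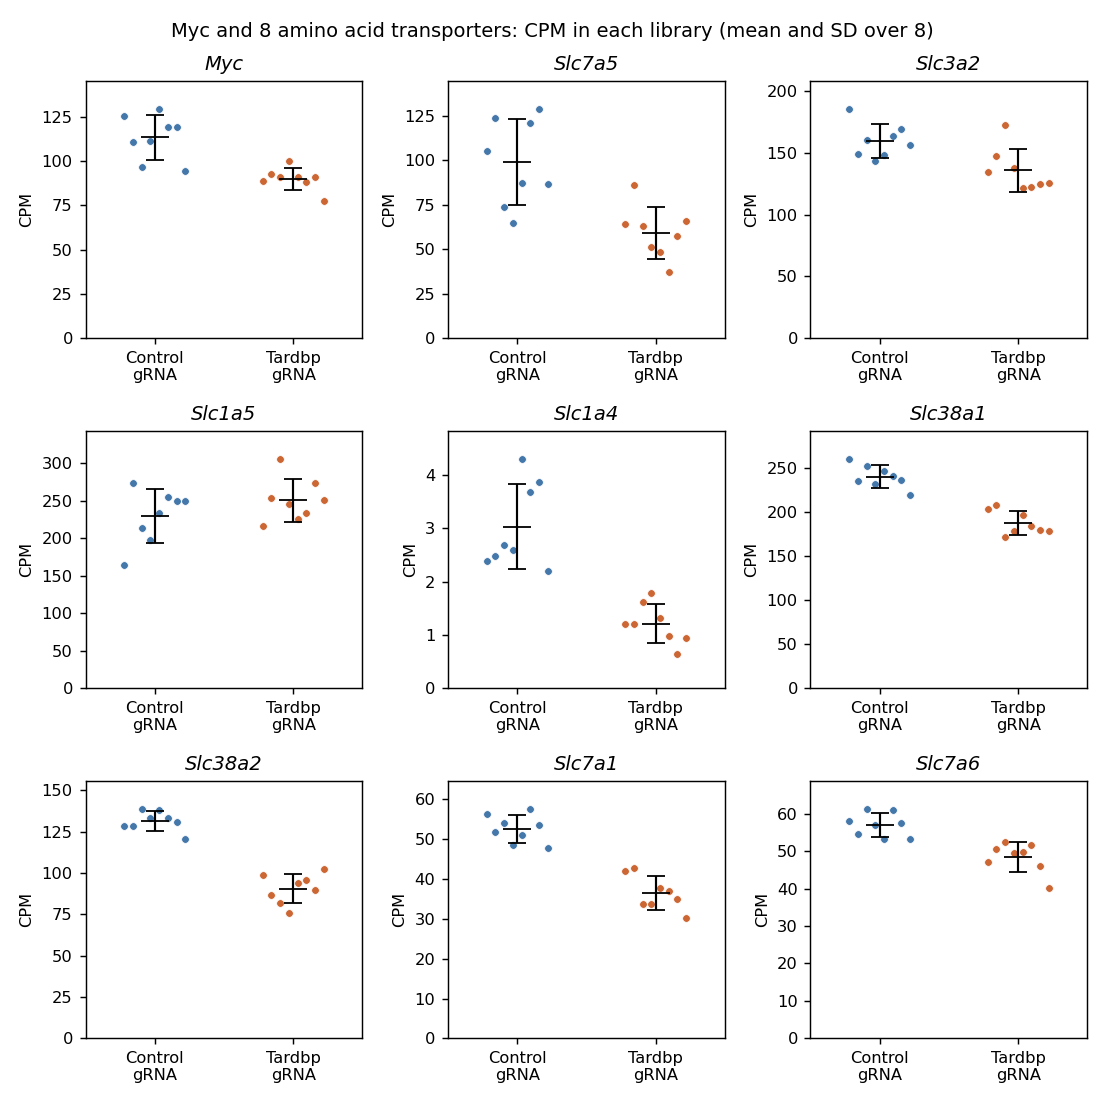
CPM (vertical axis, from 0) of Myc and the 8 transporters in each of the 16 libraries. Points are libraries in the order of their numbers, the horizontal mark is the mean and the bar the SD over 8 libraries. The points of Slc1a4, Slc38a1, Slc38a2, Slc7a1 and Slc7a6 do not overlap between groups, and those of Slc1a5 overlap widely.

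Both chains of CD98 were lower, the light chain more so. Slc7a5, the light chain, ranged from 64.8 through a median of 96.4 to 129.0 CPM in Control gRNA and from 36.9 through 60.2 to 86.0 CPM in Tardbp gRNA. It was the most uneven of the well-expressed members, with a coefficient of variation of 24.6% in each group. Control libraries 3 and 4 were low and Tardbp library 2 was high, which made the ranges overlap, while 6 of the 8 Tardbp libraries lay below every Control library. The means were 99.0 ± 24.3 and 59.1 ± 14.5 CPM (SD, n = 8 each), and the fold change was -0.74 in log2 units (SE 0.162, edgeR adjusted p 0.00097), lower than that of all but 4.47% of the genes tested. The exact permutation test gave p = 0.0014. Slc7a5 (ENSMUSG00000040010.10, chromosome 8, 121881150 to 121907694, minus strand) lies within the annotated span of Gm20388 on the opposite strand, a gene that was not among those tested.

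Slc3a2, the heavy chain, ran from 143.9 through a median of 158.4 to 186.1 CPM in Control gRNA and from 121.9 through 130.1 to 173.1 CPM in Tardbp gRNA. Tardbp library 3 stood above the others of its group and within the Control range, and 6 Tardbp libraries lay below every Control library. The means were 159.6 ± 13.6 and 136.0 ± 17.5 CPM (SD, n = 8 each), a log2 difference of -0.23 (SE 0.071, edgeR adjusted p 0.0123). The exact permutation test gave p = 0.00917. Slc3a2 (ENSMUSG00000010095.13, chromosome 19, 8706882 to 8723369, minus strand) was the member closest to the threshold of those called, and with upper quartile factors for library size its adjusted p was 0.075.

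Slc7a6, which also pairs with the heavy chain and exchanges cationic for neutral amino acids, showed a change of the same size with a smaller spread. It ranged from 53.1 through 57.3 to 61.3 CPM in Control gRNA and from 40.1 through 49.6 to 52.3 CPM in Tardbp gRNA. No Tardbp library reached a Control library, with the gap under 1 CPM and Tardbp library 8 the lowest. The means were 56.9 ± 3.18 and 48.4 ± 3.96 CPM (SD, n = 8 each) and the log2 change was -0.23 (SE 0.055, edgeR adjusted p 0.00181). Slc7a6 (ENSMUSG00000031904.5) lies on the plus strand of chromosome 8, 106168857 to 106198706. Its permutation p was 0.000155, the smallest that 8 against 8 libraries can give, and the same value was reached by the other 4 members whose groups did not overlap.

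Slc1a5 and Slc1a4, the ASCT2 and ASCT1 carriers of small neutral amino acids, differed from each other. Slc1a5, the carrier best known for glutamine, was at 164.0 through a median of 241.1 to 272.9 CPM in Control gRNA and at 215.7 through 247.9 to 305.9 CPM in Tardbp gRNA. The groups overlapped widely, with Control library 1 the lowest of all and Tardbp library 3 the highest. The means were 229.5 ± 35.7 and 250.3 ± 28.8 CPM (SD, n = 8 each). The log2 fold change was 0.13 (SE 0.092, 95% interval -0.07 to 0.32, edgeR adjusted p 0.28), and the permutation test gave p = 0.222. The interval leaves room for a rise of about the size seen as a fall in Myc, but not for a fall of that size. Slc1a5 (ENSMUSG00000001918.17) is on the plus strand of chromosome 7, 16781340 to 16798274.

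Slc1a4, which carries alanine, serine and cysteine, had the widest change of the 9 and the lowest level. Control libraries ran from 2.20 through a median of 2.65 to 4.31 CPM and Tardbp libraries from 0.65 through 1.21 to 1.80 CPM. The Control libraries themselves fell into a group of 5 near the low end and libraries 5, 6 and 7 above them, and every Tardbp library lay below the lowest Control library. The means were 3.03 ± 0.801 and 1.22 ± 0.373 CPM (SD, n = 8 each), and the fold change in log2 was -1.32 (SE 0.202, edgeR adjusted p 3.42e-05), which only 0.907% of the genes tested fell below. The estimate rests on 50 to 394 counts in a library, against 1709 or more for each of the other members. Slc1a4 (ENSMUSG00000020142.12) is on the minus strand of chromosome 11, 20302180 to 20332713.

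Since most members moved together, the promoter windows that RefSeq gives for them on GRCm38.p6 (250 bases before to 50 after the start of the gene) were searched for a pair of short motifs. Windows were held for 5 of the 9 members (Slc1a4, Slc38a2, Slc3a2, Slc7a1 and Slc7a6, 7 windows in all), and those of Myc, Slc7a5, Slc1a5 and Slc38a1 are not analysed here. The E-box CACGTG, the core bound by Myc with its partner Max, was in 0 of the 7 windows and in 7.15% of the 32851 windows of all genes. The letters TGATGNAA, the core of the amino acid response element bound by ATF4 with C/EBP factors, were in the window of Slc1a4 alone, and in 3.97% of all windows. Both motifs were searched on both strands, and a match of one could share its end letters TG with the other. The windows of Slc1a4 (chr11:20332664-20332963, minus strand), with the match in capitals and read on the opposite strand, and of Slc38a2 (chr15:96699679-96699978, minus strand), shown because it had the most certain change and holds neither motif, are these.
Slc1a4: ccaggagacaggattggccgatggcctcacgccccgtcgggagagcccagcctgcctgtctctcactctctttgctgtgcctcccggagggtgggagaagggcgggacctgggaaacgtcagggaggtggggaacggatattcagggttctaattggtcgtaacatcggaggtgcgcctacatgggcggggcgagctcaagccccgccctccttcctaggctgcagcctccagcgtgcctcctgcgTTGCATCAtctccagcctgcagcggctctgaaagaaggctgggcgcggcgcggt
Slc38a2: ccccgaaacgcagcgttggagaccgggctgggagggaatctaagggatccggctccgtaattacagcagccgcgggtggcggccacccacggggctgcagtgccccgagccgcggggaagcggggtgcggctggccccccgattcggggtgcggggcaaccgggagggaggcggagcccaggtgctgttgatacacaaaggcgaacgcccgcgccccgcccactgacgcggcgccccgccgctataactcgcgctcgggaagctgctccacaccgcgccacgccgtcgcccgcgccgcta

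In Slc1a4 the match began 4 bases before the annotated start of the gene. A match of letters is a description of the window and was not tested for binding, and its absence says nothing of sites elsewhere in a gene.

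Slc38a1 and Slc38a2, the neighbouring SNAT1 and SNAT2 genes for sodium-coupled carriers of glutamine and alanine, were both lower with no overlap. Slc38a1 ran from 219.4 through a median of 238.1 to 260.1 CPM in Control gRNA and from 171.2 through 181.5 to 208.2 CPM in Tardbp gRNA. The spread within a group was small, and Tardbp libraries 1 and 2 came nearest to the Control range. The means were 239.9 ± 12.6 and 187.4 ± 13.4 CPM (SD, n = 8 each), for a log2 change of -0.36 (SE 0.046, edgeR adjusted p 5.01e-06). Slc38a1 (ENSMUSG00000023169.15) lies at chromosome 15, 96571418 to 96642913, minus strand.

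Slc38a2, the form known to be induced when amino acids are scarce, had the smallest adjusted p of the 9. It ranged from 120.2 through 132.1 to 138.7 CPM in Control gRNA and from 76.0 through 91.8 to 102.3 CPM in Tardbp gRNA, a clear gap, with Control library 8 and Tardbp library 8 the nearest to each other. The means were 131.4 ± 5.97 and 90.6 ± 8.87 CPM (SD, n = 8 each), or a difference in log2 of -0.54 (SE 0.056, edgeR adjusted p 4.92e-07). Slc38a2 (ENSMUSG00000022462.7) lies at chromosome 15, 96687392 to 96699730, on the same strand as Slc38a1.

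Slc7a1, the CAT1 carrier of arginine and lysine, fell by nearly the same amount. It ran from 47.7 through 52.7 to 57.6 CPM in Control gRNA and from 30.2 through 35.9 to 42.7 CPM in Tardbp gRNA. No library of one group reached the other, and Tardbp libraries 1 and 2 were the highest of their group here too. The means were 52.6 ± 3.49 and 36.5 ± 4.28 CPM (SD, n = 8 each), a change in log2 of -0.53 (SE 0.068, edgeR adjusted p 5.49e-06). Slc7a1 (ENSMUSG00000041313.14) lies at chromosome 5, 148327410 to 148399904, minus strand.

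The members differed in how far their calls rested on the fit. DESeq2 called the same 8 lower, as did the fit within the 10 libraries numbered 4 to 8, which a principal component set apart from those numbered 1 to 3 in both groups. Within numbers 1 to 3 alone, 3 libraries a group, Slc1a4, Slc38a1, Slc38a2 and Slc7a1 were called, and Myc was at -0.32 (edgeR adjusted p 0.108), Slc7a5 at -0.54 (0.135), Slc3a2 at -0.15 (0.462) and Slc7a6 at -0.24 (0.14). When log2 RNA concentration by NanoDrop entered the fit as a covariate, Slc38a1, Slc38a2 and Slc7a1 were called, at log2 fold changes of -0.36, -0.48 and -0.52. In that fit Myc was at -0.05 (SE 0.125, edgeR adjusted p 0.817), while Slc7a5 was at -0.46 (0.407), Slc1a4 at -1.03 (0.116), Slc7a6 at -0.25 (0.173) and Slc3a2 at -0.10 (0.694). The interaction of the guide with the deposited letter M or F of each library was called for 0 of the 9 members and 0 of all 16650 genes, and the smallest unadjusted p among the members was that of Slc1a5, 0.0659.

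**Figure D2:**
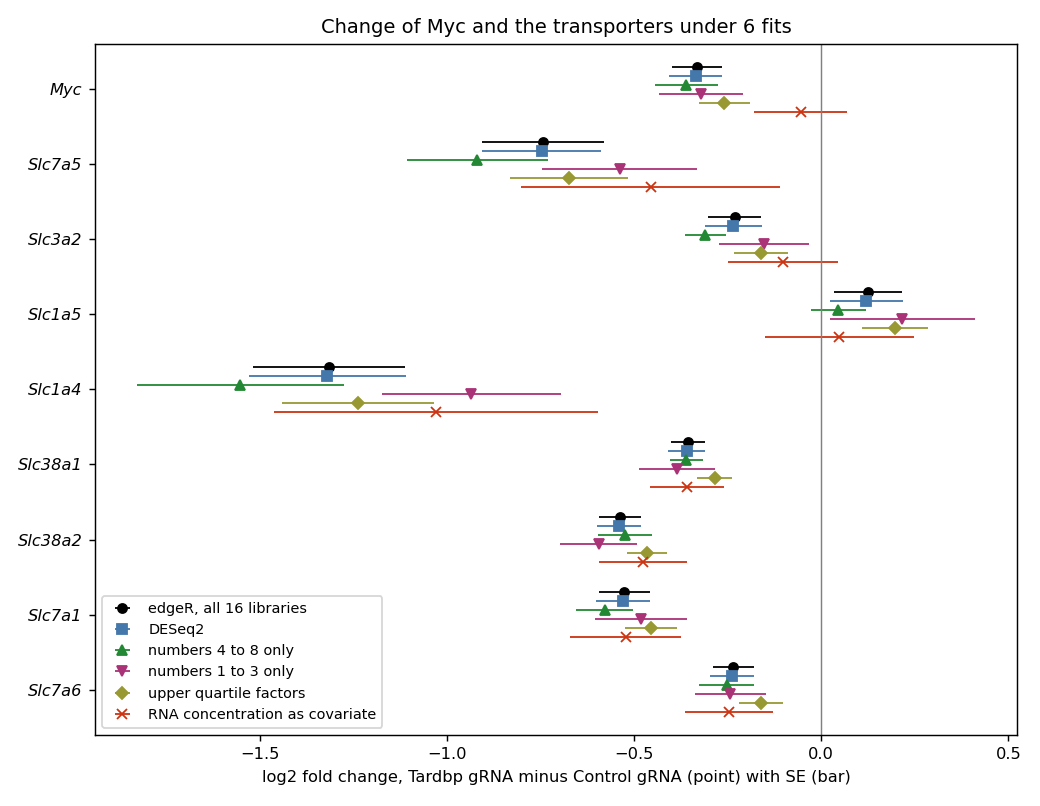
Log2 fold change (horizontal axis, Tardbp gRNA minus Control gRNA) of each gene under 6 fits, as a point with its SE as a bar. The carriers Slc38a1, Slc38a2 and Slc7a1 stay between -0.59 and -0.28 in all 6, while Myc lies at -0.33 with all libraries and at -0.05 with RNA concentration as a covariate.

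Ratios of 2 members within a library do not depend on how libraries are scaled, and 3 were tested by exact two-sided permutation with p adjusted over the 3. The count of Slc7a5 per count of its partner Slc3a2 averaged -0.73 ± 0.332 in Control libraries and -1.23 ± 0.309 in Tardbp libraries on the log2 scale (SD, n = 8 each), or 0.605 and 0.426 counts per count. The difference of -0.51 (SE 0.16) had p = 0.00808 in the exact test, adjusted p 0.00808, though the ranges of -1.15 to -0.27 and -1.73 to -0.78 overlapped. The light chain thus fell further than the heavy chain in counts.

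The ratio of Slc38a1 to Slc38a2 moved the other way, from 0.87 ± 0.064 to 1.05 ± 0.149 on the log2 scale (SD, n = 8 each). Its difference was 0.18 (SE 0.058, exact permutation p = 0.00606, adjusted p 0.00808). Control library 1, at 1.02, stood apart from the other 7, which lay between 0.80 and 0.87, and Tardbp libraries 6, 7 and 8, at 0.94, 1.003 and 0.80, lay within the Control range. Slc38a2 therefore fell further than its neighbour.

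The ratio of Slc1a4 to Slc1a5 went from -6.27 ± 0.369 to -7.74 ± 0.497 (SD, n = 8 each) on the log2 scale. The difference of -1.47 (SE 0.219) had an exact permutation p of 0.000155, adjusted p 0.000466, and the ranges of -6.82 to -5.76 and -8.73 to -7.09 did not overlap. The closely related carriers hence changed unequally, and Slc1a4 had 0.013 counts per count of Slc1a5 in Control libraries against 0.00467 in Tardbp libraries.

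**Figure D3:**
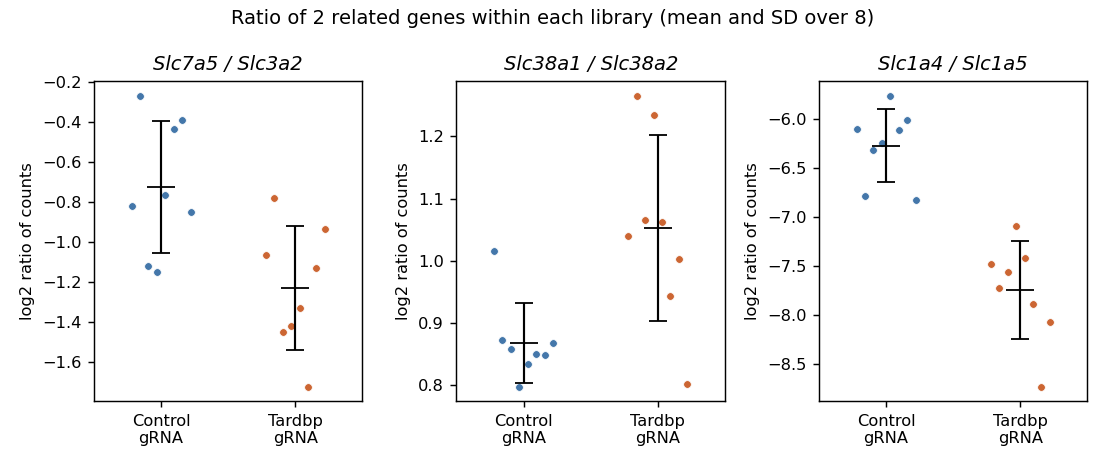
Log2 ratio of the counts of 2 related genes within each library (vertical axis), by group. Points are libraries, the horizontal mark and bar are the mean and SD over 8. The ratio of Slc1a4 to Slc1a5 separates the groups without overlap, while for the other 2 ratios the groups overlap.

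The order of the levels needs a length, and CPM was divided by the kilobases of annotated exon of each gene. In Control gRNA the order was Slc1a5 at 55.0 ± 8.55 CPM per kilobase, Slc3a2 at 45.2 ± 3.86, Myc at 41.7 ± 4.66, Slc7a5 at 26.7 ± 6.56, Slc38a2 at 14.9 ± 0.675, Slc38a1 at 13.9 ± 0.731, Slc7a6 at 12.5 ± 0.697, Slc7a1 at 4.56 ± 0.302 and Slc1a4 at 0.772 ± 0.204 (SD, n = 8). The range of Slc1a5 overlapped that of Slc3a2, and that of Slc3a2 overlapped that of Myc. Likewise Slc38a2 overlapped Slc38a1, and Slc38a1 overlapped Slc7a6. Slc7a5 touched neither Myc nor Slc38a2 in its range of 17.5 to 34.78, though the lowest Myc library was at 34.796. In Tardbp gRNA the first 4 kept their places by this length, and Slc38a1 (10.9 ± 0.78), Slc7a6 (10.6 ± 0.866) and Slc38a2 (10.2 ± 1.003) lay within one another's spread. The length chosen mattered for genes with long retained introns or ends. By the longest transcript, Slc7a5 in Control gRNA spanned 18.4 to 36.7 CPM per kilobase and took in the range of Slc38a2, 19.7 to 22.7. With each transcript counted by its own length, Slc38a1 was at 42.4 ± 2.22 CPM per kilobase in Control gRNA and Slc3a2 at 85.9 ± 8.20, level with Slc1a5 at 85.2 ± 13.0. In Tardbp gRNA Slc38a1, at 34.2 ± 3.45 by that length, then lay above Slc7a5, at 16.9 ± 4.20.

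At the level of transcripts, the members' protein-coding forms were mostly lower and their retained-intron forms mostly higher, a split first seen in these values and then counted. Of the members' 52 annotated transcripts, 36 passed the filter and 12 were called, 7 lower and 5 higher, where the same test called 16.6% of 40897 transcripts. Of 22 protein-coding transcripts tested, 19 had a lower log2 fold change and 7 were called lower, and 1, Slc38a1-207, was called higher. Among all genes, 12114 of 22063 protein-coding transcripts were lower and 2847 were called lower. Of 13 retained-intron transcripts, 11 were higher, 4 were called higher and 0 lower. Most retained-intron transcripts of all genes were higher too, 5948 of 8880, and 10.5% were called higher, and their median log2 fold change was 0.24, against 0.54 for those of the members. The median of the protein-coding ones was -0.43 in the members and -0.06 in all genes.

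The retained-intron forms called higher were Slc3a2-209, Slc1a5-207, Slc1a5-208 and Slc7a1-204. Slc3a2-209, a short form at the 5' part of the gene (chromosome 19, 8713156 to 8723198), was at 2.96 ± 0.384 and 4.40 ± 1.21 CPM (SD, n = 8 each; log2 fold change 0.57, SE 0.172, edgeR adjusted p 0.0315), in the same libraries in which the gene as a whole was lower. Slc7a1-204, a single exon at 148391417 to 148393648, was at 0.681 ± 0.341 and 1.28 ± 0.399 CPM (log2 fold change 0.91, SE 0.303, edgeR adjusted p 0.0494). The main coding forms went the other way, Slc7a1-201 at -0.61 and Slc38a2-201 at -0.63 (edgeR adjusted p 4.84e-05 and 6.62e-06).

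As a share of the gene's counts these shifts were small. No transcript of a member differed by over 0.1 of the gene's counts with a limma adjusted p under 0.05, as 0.635% of 32777 transcripts did. At any size, 7 of the members' 34 tested shares had an adjusted p under 0.05, against 4.42% of all. Shares of 1 gene are not independent, and those of the only 2 transcripts of Slc38a2 mirror each other. The retained-intron transcript of Slc38a2 took 4.76 ± 0.664% of the gene's counts in Control libraries against 8.37 ± 1.17% in Tardbp libraries (SD, n = 8 each; limma adjusted p 0.000719), with ranges of 3.67 to 5.80% and 6.25 to 9.91% that did not overlap. The level of this transcript, Slc38a2-202, was not called, at 6.35 ± 0.735 and 7.47 ± 1.08 CPM (log2 fold change 0.23, SE 0.117, edgeR adjusted p 0.206). Its larger share thus came with a lower coding form, Slc38a2-201, at -0.63. Summed over their retained-intron transcripts, Slc7a1 went from 1.60 ± 0.706 to 4.21 ± 0.828%, Slc3a2 from 1.83 ± 0.257 to 3.26 ± 0.765% and Slc38a1 from 8.48 ± 1.62 to 11.7 ± 2.20% (SD, n = 8 each). Slc7a6 was at 8.55 ± 3.99 and 10.1 ± 1.98% and Slc1a5 at 67.5 ± 21.8 and 59.0 ± 13.2%. These sums were not tested, and apart from Slc38a2 their ranges overlapped between groups. Among single retained-intron transcripts the shares of Slc7a1-204, Slc3a2-209 and Slc7a6-206 had a limma adjusted p under 0.05 (0.00474, 0.0101 and 0.0355), and those of Slc38a1 and Slc1a5 did not. With replicate number as a block in the fit, the limma adjusted p of Slc7a6-206 was 0.119.

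**Figure D4:**
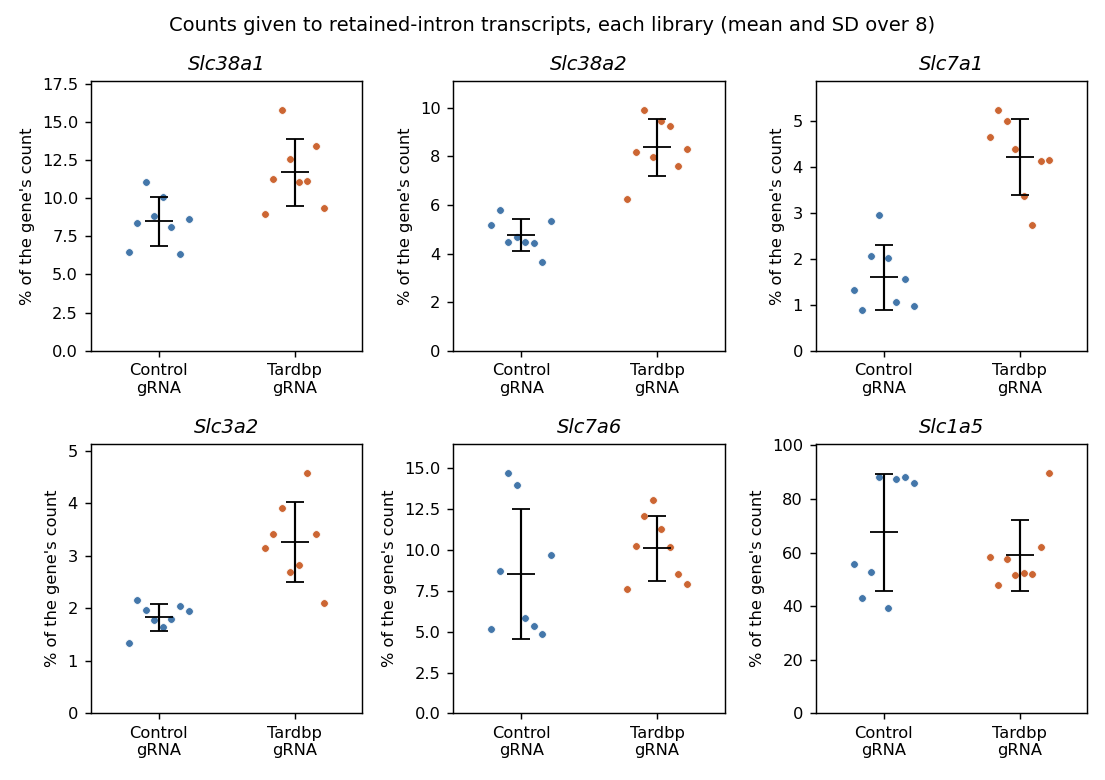
Percent of a gene's counts (vertical axis, from 0) assigned to its retained-intron transcripts in each library, by group. Points are libraries, marks and bars the mean and SD over 8. Slc38a2 spans 3.67 to 5.80% in Control libraries against 6.25 to 9.91% in Tardbp libraries, and Slc1a5 spans 39.2 to 88.1% and 47.9 to 89.8%.

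The split of Slc1a5 between its coding form and Slc1a5-202, a nearly complete form with 1 retained intron, is an estimate that moved from 11.9 to 60.8% coding among Control libraries, and is uncertain. When genes were counted over protein-coding transcripts alone, an alternative chosen after seeing the data, the same 8 members were called lower and Slc1a5 was at 0.52 (SE 0.4, edgeR adjusted p 0.303). Slc1a4 had only 2 transcripts, and counts passed between them from library to library over the whole range of 0 to 100% in Control gRNA, so no share was read from it.

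Within a group, Myc and the transporters were set against each other over the 8 libraries, 16 relations in all with exact permutation tests. None had an adjusted p under 0.05, and 1 had an unadjusted p under 0.05. In Tardbp gRNA, libraries with more Myc had less Slc38a2 (Pearson's r = -0.82, exact permutation p = 0.00712, adjusted p 0.114, with a Spearman rho of -0.83, p = 0.0154 in the exact test and 0.246 after adjustment), and r was -0.68 without the 2 libraries farthest from the median of Myc. The same pair had r = 0.35 in Control gRNA. The r of 0.73 between Myc and Slc7a6 in Tardbp gRNA (rho = 0.12) rested on the libraries farthest from the median and was -0.00063 without them. With 8 libraries a group, even relations of this size did not pass the adjustment, so weaker ones could not be seen. Each r also pooled the library sets that a principal component set apart in both groups, with no term for that split. A low or negative r over the 8 libraries therefore does not show that a relation was absent within a set. The part of the split in these values was not tested.

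As a description over the 16 libraries after centring each gene on its group means, the pair of members closest to each other was Slc38a1 and Slc7a1 (r = 0.83), followed by Slc7a1 and Slc7a6 (0.55), Myc and Slc1a4 (0.53) and the CD98 chains (0.48). The most opposed pair was Slc38a1 and Slc1a5 (-0.59), and 25 of the 36 pairs had an r above 0. Among 8975 well-expressed genes, those most like Slc7a5 were Zdhhc3 (0.93), Pgrmc2 (0.93) and Gars (0.92), those most like Myc were Wdr73 (0.83), Polr3e (0.83) and Dnmt3a (0.79), and those most like Slc7a6 were Glmn (0.86), Snapc3 (0.81) and Snhg17 (0.80). These points share libraries, depth and scaling, and centring on group means does not remove the split between library sets. Between groups, Wdr73 and Polr3e had log2 fold changes of 0.22 and -0.23.

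The genes around Myc moved in both directions. Of 28 genes for partners and regulators of Myc, all tested, 12 were called lower and 6 higher, with a median log2 fold change of -0.12. Together these are 64.29% of the list, beside 46.7% called of all genes, 23.3% lower and 23.5% higher. Max, the partner without which Myc does not bind DNA, was at 81.3 ± 8.09 and 42.2 ± 12.3 CPM (SD, n = 8 each; log2 fold change -0.95, SE 0.156, edgeR adjusted p 6.86e-05), a wider change than that of Myc. Skp2, a ubiquitin ligase subunit that acts on Myc, was at -0.64, and Mycl, a low-expressed relative of Myc, at -1.13. Mxd4, which pairs with Max and represses, was at 6.67 ± 1.60 and 19.5 ± 4.56 CPM (log2 fold change 1.54, SE 0.161, edgeR adjusted p 5.16e-07), and Mycn and the kinase gene Pim1 were higher at 1.10 and 0.50.

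Of 40 known targets of Myc, all tested, 31 were called lower and 1 higher, with a median of -0.38, set beside 23.3% called lower of all genes. The widest were Cad, the enzyme that starts pyrimidine synthesis from glutamine, at 220.1 ± 36.1 and 85.3 ± 20.2 CPM (log2 fold change -1.37, SE 0.137, edgeR adjusted p 3.31e-07), and Rrp12 and Mybbp1a, which act in ribosome assembly, at -1.10 and -1.01. The gene called higher was Ccnd2, a cyclin of early cell cycle, at 0.38. The list was chosen with earlier results of these data known and says nothing on its own of what Myc did in these cells.

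**Figure D5:**
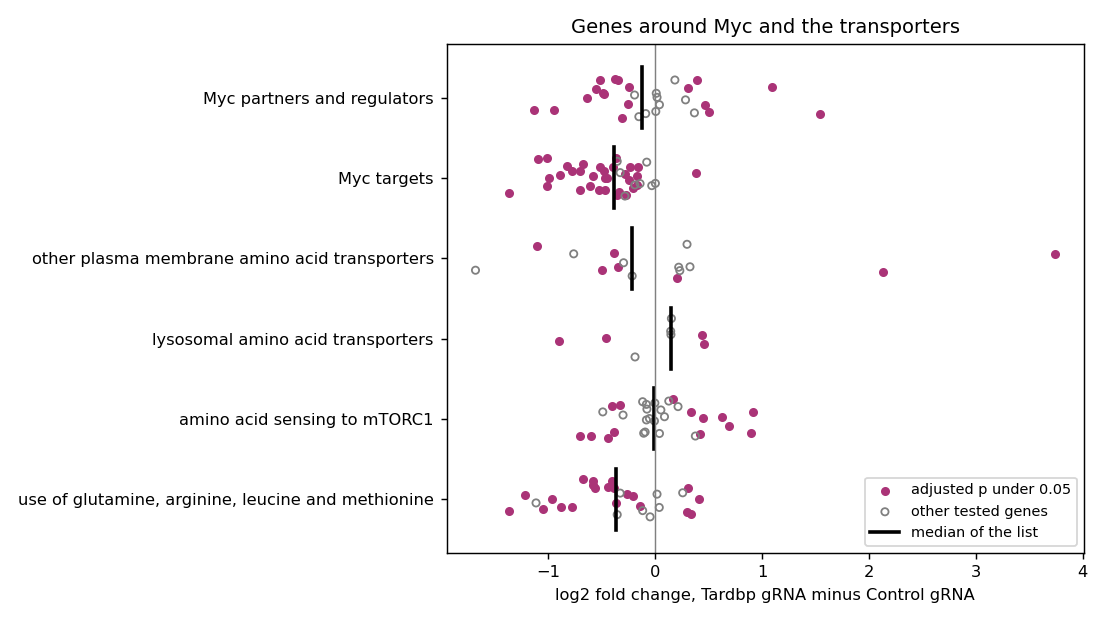
Log2 fold change (horizontal axis, Tardbp gRNA minus Control gRNA) of the tested genes of 6 lists around Myc and the transporters. Filled points have an adjusted p under 0.05, open points do not, and the black line is the median of a list. Myc targets and the genes for use of amino acids lie mostly below 0, with medians of -0.38 and -0.36, and the sensing genes lie on both sides with a median of -0.01.

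Other carriers did not share one direction. Of 31 further genes listed as plasma membrane amino acid transporters, without a check of site or substrate, 15 had enough counts to be tested. Of these, 4 were called lower and 3 higher, with a median of -0.21. These 7 are 46.67% of the 15, the same share as among all genes. Lower were Slc7a3, a second carrier of cationic amino acids, from 2.25 ± 0.899 to 1.05 ± 0.376 CPM (log2 fold change -1.10), Slc43a3, now known for purine bases, at -0.50, and Slc6a6, the taurine carrier, at -0.38. Slc43a2, a carrier of leucine, was higher at 0.20, and the other two called higher, Slc1a3 and Slc6a19, were each under 1 CPM in both groups. Of 8 tested lysosomal carriers (of 10), 2 were called lower and 2 higher, together 50% beside 46.7% of all genes. These were Slc15a3 (-0.89) and Mfsd12 (-0.46), and Pqlc2 (0.46) and Slc38a9 (0.44), the latter the arginine sensor of mTORC1.

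Among 31 genes that report amino acids to mTORC1, 6 were called lower and 8 higher, together 45.16%, close to the share among all genes. Sesn3 and Sesn1, stress-induced sestrins that hold mTORC1 down, rose from 16.1 ± 2.45 to 30.4 ± 2.73 CPM and from 22.5 ± 3.94 to 41.9 ± 7.21 CPM (SD, n = 8 each). Their log2 fold changes were 0.92 and 0.90 (edgeR adjusted p 2.21e-07 and 6.18e-06). Bmt2, also known as Samtor, was at 0.69. Depdc5, part of the brake complex GATOR1, was at -0.70, Lars, the leucyl-tRNA synthetase, at -0.60 and Rraga, a GTPase that docks mTORC1 on lysosomes, at -0.44.

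Of 29 tested genes (of 31) for the use of glutamine, arginine, leucine and methionine, 17 were called lower and 4 higher, with a median of -0.36. Together these are 72.41% of those tested, beside 46.7% called of all genes, 23.3% lower and 23.5% higher. Besides Cad, one of several genes that this list shares with the Myc targets, the lowest of those called were Gls2 (-1.22), the liver-type glutaminase, and Pycr1 (-1.05), of proline synthesis, both under 5 CPM. Among those called higher were Bckdha (0.33), which breaks down branched-chain amino acids, and Mat2b (0.31), of the enzyme that makes S-adenosylmethionine.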

How the data were processed

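The 16 libraries (SMART-Seq v4 and Nextera XT, paired reads) were of RNA from sorted CD8+ T cells. Per the labels, the authors' tools were HISAT2 2.1.0, SAMtools 1.9, StringTie 2.1.0, R 4.0.5 and DESeq2 1.30.1 with build mm10, and the methods say that reads were aligned with HISAT2 and counted with StringTie. The deposited estimated counts per gene and transcript were whole numbers, not normalized. The deposited annotation gave counts of read pairs, RNA concentration by NanoDrop and by Qubit and a letter M or F per library. A deposited splicing table holds percent spliced in under 2 letters that its header does not tie to a group, with the authors' own differences and probabilities, and was not used, so the planned count of its nodes was not made. Also unused were 10 columns of the count tables that match no sample here. Lines naming no gene (26345, 0.0836 to 0.132% of counts) were left out. Names and coordinates are from GENCODE M21 (GRCm38).

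The test of genes and of transcripts was that of edgeR 4.0.16 in R 4.3.3 (quasi-likelihood, TMM, filterByExpr with minimum count 10, total 15 and proportion 0.7), all 16 libraries in 1 fit without covariates, adjusted p under 0.05 over all features tested, two-sided. Log2 CPM used a prior count of 2. Transcript shares were tested with limma 3.58.1. Single values were compared by exact permutation over 12870 splits, in Python 3.11.15 with SciPy 1.17.1. DESeq2 1.42.0, other scalings, filters, covariates, blocks and library subsets were tried. Members and lists were chosen with earlier results of these data known. Named genes are the members, up to 3 called genes at each end of a list by log2 fold change, the 3 genes most like Myc, Slc7a5 and Slc7a6, and Tardbp. A gene that this rule would name is not reported here.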

Additional observations from a re-analysis of the deposited data

Results flagged for a closer look

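Of 24 sets of 8 values examined (9 genes and 3 ratios in each group), 1 had a library far from the rest. The log2 ratio of Slc38a1 to Slc38a2 in Control gRNA was 1.02 in library 1, with the nearest library at 0.87, and the gap took 0.654 of the group's range, over Dixon's 95% critical value for 8 samples. Chance marks about 1 set in 20. The same library had the highest Slc38a1 level of its group, at 260.1 CPM, and with it left out the difference of this ratio between groups was wider, at 0.20 on the log2 scale.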

How the results depend on the processing

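Of the values recomputed under an alternative, 135 were unchanged, 20 moved, 10 lost a call and 2 turned in sign, and all 224 recomputed without 1 library were unchanged. For fold changes, ratios and relations, unchanged means the same direction and side of the threshold. For counts of calls and levels per length, it means within a fixed limit around the main value, and moved means outside it. Leaving out any 1 library gave 7265 to 7734 genes called and 8 members called each time, log2 fold changes of -0.39 to -0.30 for Myc, -0.84 to -0.68 for Slc7a5 and 0.06 to 0.16 for Slc1a5, and ratio differences of -0.57 to -0.43 (Slc7a5 to Slc3a2), 0.15 to 0.22 (Slc38a1 to Slc38a2) and -1.57 to -1.33 (Slc1a4 to Slc1a5). Same-numbered libraries did not pair, with correlations of their deviations from group means of -0.01 to 0.16, 2 of 8 above 0.1, and 2 libraries correlating best with their own number. With the replicate block 7645 genes and 8 members were called, and 111 transcript shares against 208 without it. The block leaves the ratio differences as they are by construction (-0.51, 0.18 and -1.47), and their exact permutation p became 0.00781, 0.0234 and 0.00781. With log2 RNA concentration by NanoDrop as a covariate 2697 genes and 3 members were called, and within numbers 1 to 3 alone 1696 genes and 4 members, with 3 libraries a group. Upper quartile factors called 4865 genes higher and 3086 lower, against 3906 and 3877, and 7 members, Slc3a2 being at -0.16. With a share difference over 0.05 in place of 0.1, 455 shares were called. Without the 2 libraries farthest from the median of Myc, r in Tardbp gRNA turned from -0.12 to 0.68 for Slc7a5 and from 0.73 to -0.00063 for Slc7a6. Relations within numbers 4 to 8, at 5 libraries, are under the minimum of 6 and are not given. The cause of these differences was not tested.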
